A study of Arabidopsis thaliana with 30 samples.

Results

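The 152 loci of the Arabidopsis thaliana mitochondrial genome, chosen as every identifier that starts with ATMG, were followed among 32820 genes in 30 RNA-seq libraries from systemic leaves, that is, leaves away from the waterlogged roots. The libraries fell into 10 groups of 3. Plants labelled rbohD, a name used for mutants of RBOHD (an NADPH oxidase of the respiratory burst), gave leaves at 0 min, after 60 min of root waterlogging, and from control plants at 60 min. Col-0 plants, the wild type (WT), gave leaves at 0 min and, at 10, 30 and 60 min, from waterlogged and from control plants. The rbohD allele is not given in the sources used here, and per the labels each of the 3 repeats was made from 15 plants of a genotype and time, so p-values measure the spread among these pools.

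Plant mitochondria keep a small genome that encodes part of the respiratory chain (complexes I, III and IV), part of the ATP synthase, proteins that attach haem to cytochrome c, some ribosomal proteins and the mitochondrial ribosomal RNAs, while most mitochondrial proteins are encoded in the nucleus. A tail of adenosines on a plant mitochondrial transcript usually marks it for decay, in contrast to nuclear messenger RNA, so libraries that favour tailed RNA hold little of it. Mitochondrial ribosomal RNA, like the nuclear 18S ribosomal RNA, is carried over from total RNA in an amount that depends on how the library was made.

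The values were FPKM, fragments scaled to gene length and library size by the authors. The authors' confidence intervals implied 10.9 M to 13.3 M fragments per library, of which 1818 to 5495 lay on mitochondrial loci. Leaf markers stood between 1089 and 27741 FPKM in every library and root markers between 0 and 0.923 FPKM, with RHD6 at 0 in all 30. RBOHD (AT5G47910, chromosome 5, 19397041 to 19402061) stood at 19.99, 21.3 and 21.7 FPKM in the libraries labelled rbohD at 0 min, against 17.5, 17.1 and 17.6 FPKM in WT at 0 min, so its level does not bear out the label at that time, and rbohD below means the libraries so labelled. At 60 min it stood at 13.0, 11.9 and 15.7 FPKM in waterlogged rbohD and 13.3, 13.5 and 13.8 FPKM in waterlogged WT, and at 12.9, 13.1 and 12.4 FPKM in control rbohD against 21.2, 24.1 and 25.0 FPKM in control WT.

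The nuclear 18S ribosomal RNA locus AT3G41768 (chromosome 3, 14197677 to 14199484) served as the level of residual ribosomal RNA. It split the libraries: 10 stood at 4050 FPKM or more, and the other 20 at 2640 FPKM or less. All 9 rbohD libraries were among the 10, together with replicate 3 of waterlogged WT at 60 min (5754 FPKM). Genotype and residual ribosomal RNA therefore cannot be told apart at 0 min or among 60 min controls, where each group lay wholly on its own side.

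Much of the mitochondrial genome has a second home in the nucleus, which decides what a fragment can say about its origin. On chromosome 2, the bases 3239038 to 3509765 (270728 bases) matched the RefSeq mitochondrial genome in 17 blocks with 99.56% to 99.972% identity and covered 72.2% of it. The gene for the alpha subunit of ATP synthase, atp1, had a copy there that was identical over all 1524 bases, and atp9, the proton-conducting ring subunit, had one identical over all 225 bases. For cox2, a subunit of cytochrome c oxidase, 306 bases matched, with 11 differing bases. By contrast cox1, atp4, ccmB and rrn5 had no nuclear match of at least 95% identity, and rrn18 had one over 3.77% of its length. The chromosome 2 copies of the first bases of atp1 (chr2:3362505-3362624, plus strand), of all of atp9 (chr2:3251856-3252080, minus strand) and of the end of the cox2 match (chr2:3347107-3347256, plus strand) are shown, read 5′ to 3′ from the RefSeq genome, whose nuclear gene boundaries were the same as in the files for 99.9% of matched genes. Capitals mark the start codon in atp1 and atp9 and, in cox2, the 10 bases that differ from the mitochondrial gene.
atp1 copy: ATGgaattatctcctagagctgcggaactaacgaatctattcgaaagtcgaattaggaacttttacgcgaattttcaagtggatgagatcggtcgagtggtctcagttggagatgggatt
atp9 copy: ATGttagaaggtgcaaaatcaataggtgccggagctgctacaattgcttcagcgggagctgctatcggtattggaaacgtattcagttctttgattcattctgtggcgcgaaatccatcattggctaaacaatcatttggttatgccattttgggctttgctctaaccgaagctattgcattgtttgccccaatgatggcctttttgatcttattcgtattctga
cox2 copy: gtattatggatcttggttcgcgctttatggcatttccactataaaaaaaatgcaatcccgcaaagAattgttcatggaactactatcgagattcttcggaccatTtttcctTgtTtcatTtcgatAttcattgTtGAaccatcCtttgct
A fragment from within the atp1 or atp9 coding sequence fits both genomes equally well, so the levels of these loci and of their nuclear partners, AT2G07698 and AT2G07671, are uncertain as to origin. The mitochondrial sequence of the files' own build was not used here.

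Levels were low. Of the 152 loci, 33 averaged 1 FPKM or more, 90 had a mean above 0 and below 1, and 29 were listed at 0 in all libraries. Of the 29 loci shorter than 150 bases, 27 were listed at 0 in every library, where a 0 can be a failed estimate. Just above the limit stood atp6-1 (1.02 FPKM), rpl2 (1.03 FPKM) and atp6-2 (1.04 FPKM), and just below it ATMG00620 (0.935 FPKM), rps12 (0.901 FPKM) and ATMG00170 (0.859 FPKM). By group, the loci with a mean of at least 1 FPKM numbered 33 in rbohD at 0 min, 37 in waterlogged rbohD and 32 in control rbohD at 60 min. In WT they numbered 24 at 0 min, 28 in waterlogged and 28 in control leaves at 10 min, 30 and 26 at 30 min, and 27 and 31 at 60 min. Altogether 18 loci reached 1 FPKM in all 10 groups and 52 in at least 1 group.

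**Figure D1:**
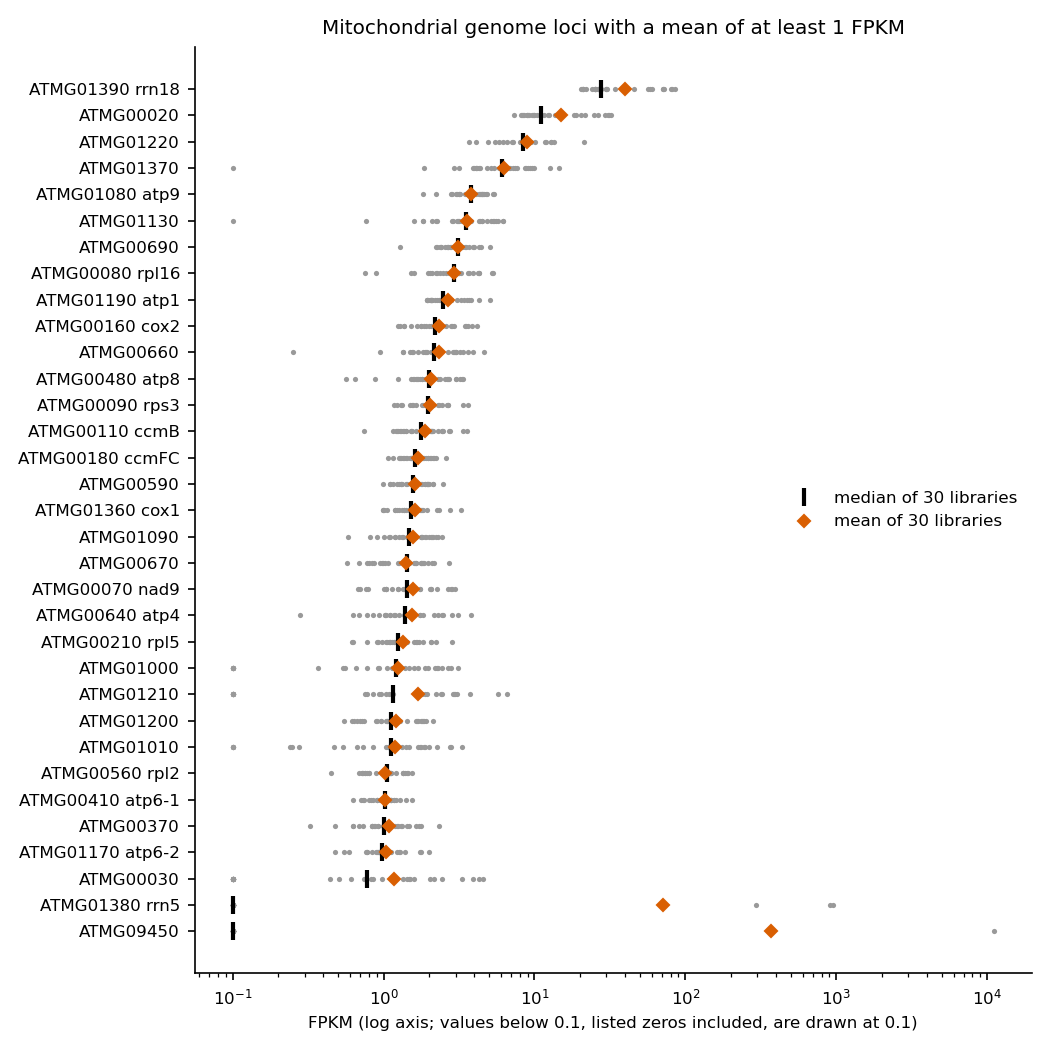
FPKM (log axis) of the 33 mitochondrial loci that averaged 1 FPKM or more, grey points being the 30 libraries, black bars the medians and diamonds the means (values below 0.1, zeros included, drawn at 0.1). The rRNA locus rrn18 (median 27.6 FPKM) and ATMG00020 (median 11.01 FPKM) stand above the rest, while the means of rrn5 and ATMG09450 come from a few libraries.

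The highest mean of all, 370 FPKM, belonged to ATMG09450, a locus of 80 bases that was listed at 0 in 29 libraries and at 11102 FPKM in WT at 0 min replicate 2, from about 1 fragment. The 5S ribosomal RNA gene rrn5 (ATMG01380, 118 bases, mean 71.5 FPKM) was listed at 0 in 27 libraries and rested on at most 3 fragments in any library. Neither level can be read as abundance. Among the 31 tested loci of at least 150 bases, rrn18 (ATMG01390, bases 361350 to 363284 of the files' mitochondrial genome), the RNA of the small ribosomal subunit, averaged 39.8 FPKM with a median of 1041 implied fragments. ATMG00020 (bases 8848 to 11415), which neither the files nor the RefSeq tables name, averaged 15.1 FPKM. The other 29 averaged 1.02 to 8.89 FPKM and had a median of about 1 to 67.9 implied fragments per library, which limits what their tests can detect. The next highest, ATMG01220 (8.89 FPKM, 3.67 to 21.4) and ATMG01370 (6.32 FPKM, 0 to 14.5), have no annotated function in the sources used here.

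Named protein genes averaged under 4 FPKM, with a spread within each role. Of the ATP synthase subunits atp9 averaged 3.81 FPKM (1.83 to 5.38 over libraries), atp1 2.69 FPKM (1.93 to 5.04) and atp8 2.06 FPKM (0.562 to 3.36), and atp4, atp6-1 and atp6-2 were also above 1 FPKM. Of complex IV, cox2 averaged 2.34 FPKM (1.25 to 4.14) and cox1, the catalytic subunit, 1.61 FPKM (0.995 to 3.26), while cox3 averaged 0.380 FPKM. The cytochrome b gene of complex III, cob, averaged 0.419 FPKM (0.215 to 0.691). Of the annotated complex I genes only nad9 passed 1 FPKM (mean 1.57, 0.676 to 2.96), and nad4 averaged 0.843 FPKM. For cytochrome c maturation ccmB averaged 1.88 FPKM (0.747 to 3.58) and ccmFC 1.68 FPKM. The ribosomal protein genes rpl16 (2.92 FPKM), rps3 (2.03 FPKM), rpl5 (1.35 FPKM) and rpl2 passed, rpl16 and rps3 overlapping in position, and the maturase gene matR did not (0.787 FPKM). ATMG00110, named ccb206 in the files, is given here as ccmB.

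Waterlogging of WT plants was followed by few detectable changes at mitochondrial loci. At 10 min 0 of 33 tested loci passed limma's adjusted p of 0.05, against 5.0% of all 17491 genes tested (4.14% higher), and 3 of 33 had an unadjusted p under 0.05. At 30 min 1 of 33 passed, against 11.9% of all genes (7.78% higher), with 2 at an unadjusted p under 0.05. At 60 min 0 of 33 passed, against 29.7% of all genes (14.7% higher), with 1 at an unadjusted p under 0.05. Other settings called 0 to 1 locus at 10 min (1 without control replicate 2) and 0 to 2 at 60 min (1 and 2 without waterlogged replicates 1 and 2). At each time the share of mitochondrial loci called was below that of all genes. The median log2 difference of the 33 loci was -0.03, 0.12 and 0.01 at 10, 30 and 60 min, and of all genes -0.01, -0.02 and 0.01. All differences are of log2(FPKM + 1), so that a change at a low locus comes out smaller than its fold, and in whole leaves fewer cells of a type and less RNA per cell cannot be told apart.

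The 1 call, ccmB, which encodes a membrane subunit of the cytochrome c maturation transporter, was at 2.13, 2.77 and 2.08 FPKM in waterlogged WT at 30 min and 1.54, 0.747 and 1.28 FPKM in the controls. The groups did not overlap (log2 difference 0.61 ± 0.20 SE, limma adjusted p = 0.0492). The call was lost without any of waterlogged replicates 1, 2 and 3 or control replicates 2 and 3 (adjusted p 0.0738 to 0.239) and with 18S ribosomal RNA in the model, among other alternatives. At 10 min, waterlogged WT had 1.41, 1.23 and 1.24 FPKM of ccmB and the controls 2.31, 1.53 and 2.45 FPKM, which did not pass.

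Mitochondrial ribosomal RNA in WT leaves at 60 min turned on 1 library. In waterlogged WT at 60 min rrn18 was at 29.9, 30.3 and 85.6 FPKM, and in controls at 30.03, 27.5 and 34.4 FPKM. ATMG00020 was at 12.4, 9.94 and 30.8 FPKM in waterlogged WT and 11.1, 12.5 and 13.6 FPKM in controls. The high value of both came from replicate 3, the library with 5754 FPKM of 18S ribosomal RNA against 2055 and 1959 FPKM in replicates 1 and 2. With it, the rrn18 difference was 0.47 ± 0.23 (SE, limma adjusted p = 0.128), and without it -0.02 ± 0.11 (limma adjusted p = 0.932).

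**Figure D2:**
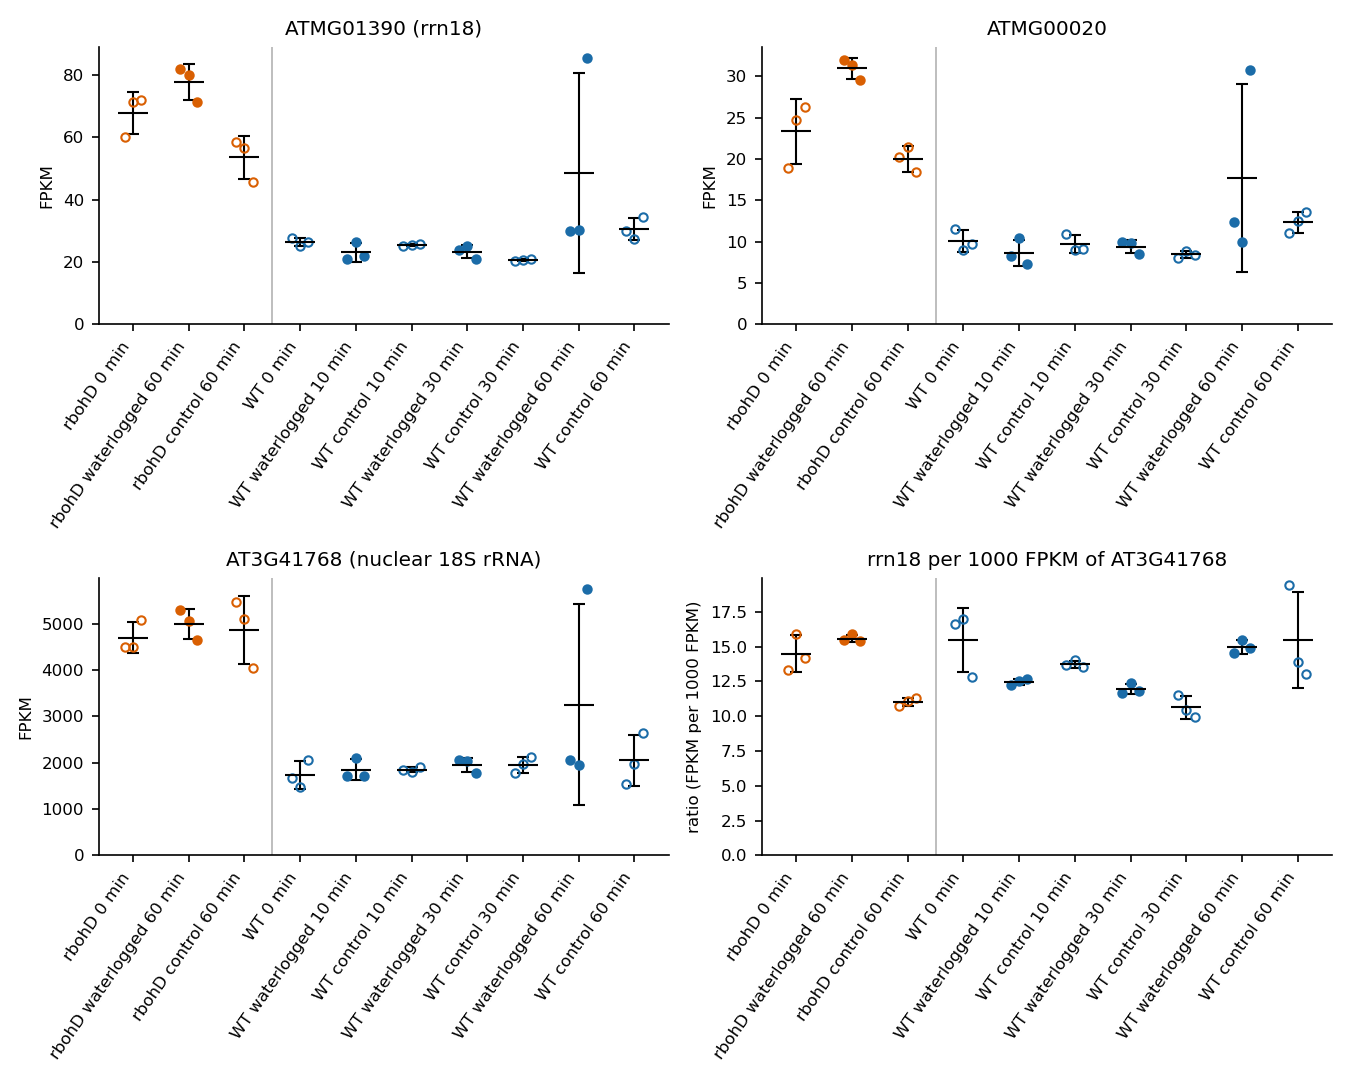
FPKM of rrn18, ATMG00020 and the nuclear 18S ribosomal RNA, and FPKM of rrn18 per 1000 FPKM of 18S, by group, with points for libraries (filled when waterlogged) and bars for mean ± SD (n = 3). The rbohD libraries and replicate 3 of waterlogged WT at 60 min are high in the first 3 panels, and the ratio is 15.4 to 15.9 in waterlogged rbohD, 10.7 to 11.3 in control rbohD, 13.3 to 15.9 in rbohD at 0 min and 9.91 to 19.4 in WT.

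In rbohD leaves at 60 min, 9 of 33 mitochondrial loci passed, 8 higher and 1 lower in waterlogged than in control leaves. Of all genes 59.0% passed, and 26.3% were higher, against 24.2% of the mitochondrial loci. The share called higher was thus near the background. The share called in either direction, 27.3%, was below the 59.0% of all genes, and 1 of 33 was lower against 32.7% of all genes. The count was 3 without control replicate 2, 4 without waterlogged replicates 2 or 3, 5 without control replicate 1 or waterlogged replicate 1, and 6 without control replicate 3. With only these groups fitted it was 4, beside 7696 of all 17491 genes, and ccmB, cox1, atp9, atp6-2, ATMG00670 and ATMG01130 were then not called. The median difference was 0.20 for the 33 loci and -0.05 for all genes, and 22 of 33 differences were above 0.

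The loci called higher came from several roles. The clearest was atp1, at 3.81, 4.29 and 5.04 FPKM in waterlogged rbohD and 2.56, 2.82 and 3.25 FPKM in control rbohD. These groups did not overlap (log2 difference 0.47 ± 0.10 SE, limma adjusted p = 0.000288), and the call held without each library in turn (difference 0.38 to 0.55). Its nuclear partner AT2G07698 (chromosome 2, 3361463 to 3364127) holds the identical atp1 copy (3362505 to 3364028) and further bases on either side. AT2G07698 was at 4.14, 4.51 and 5.91 FPKM in waterlogged rbohD and 2.86, 3.55 and 3.22 FPKM in control rbohD (0.47 ± 0.12 SE, limma adjusted p = 0.0014). Both differences were 0.47, and whether 1 or both loci were the source cannot be told apart.

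Loci without a full nuclear copy were also called, with less stability. The catalytic subunit gene cox1 was at 1.81, 3.26 and 2.74 FPKM in waterlogged rbohD and 1.501, 1.37 and 2.24 FPKM in control rbohD, groups that overlapped (0.41 ± 0.16 SE, limma adjusted p = 0.0321). That call was lost without control replicates 1 or 2 or waterlogged replicates 2 or 3 (adjusted p 0.0869 to 0.179). ccmB was at 3.58, 1.51 and 3.35 FPKM in waterlogged rbohD and 2.09, 1.37 and 1.21 FPKM in control rbohD (0.54 ± 0.20 SE, limma adjusted p = 0.0244). Its call was lost without control replicates 2 or 3 or waterlogged replicates 1 or 3 (adjusted p 0.0727 to 0.138).

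Of the other ATP synthase loci, atp9 was at 4.63, 4.82 and 4.36 FPKM in waterlogged rbohD and 4.08, 2.22 and 3.17 FPKM in control rbohD (limma adjusted p = 0.0405). Leaving out any of these libraries except control replicate 1 ended the call (adjusted p 0.0561 to 0.236). Its nuclear partner AT2G07671 (mean 8.97 FPKM over all libraries) was not called (0.20, limma adjusted p = 0.207). atp6-2, which encodes the subunit that passes protons to the ring, was at 0.892, 2.01 and 1.78 FPKM in waterlogged rbohD and 0.768, 0.479 and 0.987 FPKM in control rbohD (0.54 ± 0.17 SE, limma adjusted p = 0.00869). Without control replicate 2 or waterlogged replicate 2 its adjusted p was 0.0574 or 0.0633. AT2G07741, the nuclear locus that both atp6 genes match, was not called (0.02, limma adjusted p = 0.929), nor was its interaction of genotype and waterlogging (-0.02, limma adjusted p = 0.942). Counting by role, 3 of 6 ATP synthase loci, 1 of 2 complex IV loci, 1 of 2 cytochrome c maturation loci and 1 of 2 ribosomal RNA loci were called, all higher. Of complex I 0 of 1 and of the ribosomal proteins 0 of 4 were called. Beside these stand 59.0% of all genes called and 26.3% called higher, and the roles hold too few loci to be told from those shares. Loci without an annotated symbol that were called, named after their values were seen, were ATMG00670 (0.47) and ATMG01130 (-1.14, from a median of 4.00 fragments). ATMG00670 was lost without control replicates 1 or 2 or waterlogged replicates 1 or 3 (adjusted p 0.0591 to 0.404), and ATMG01130 without control replicates 1 or 2 or waterlogged replicates 2 or 3 (adjusted p 0.0692 to 0.370).

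**Figure D3:**
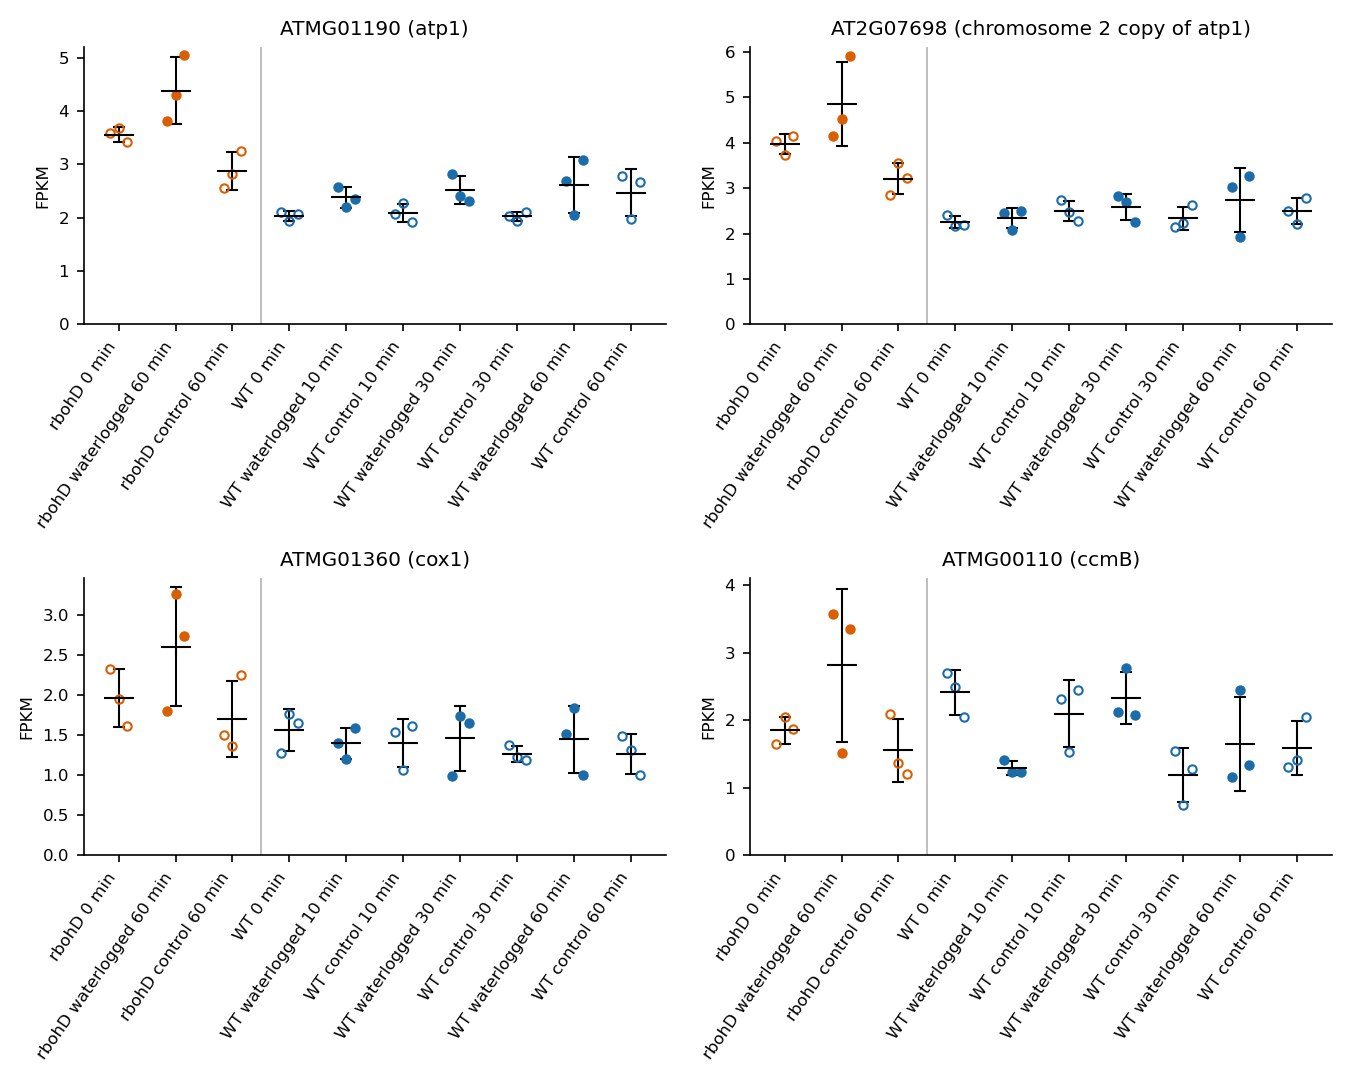
FPKM of atp1, of AT2G07698 (the nuclear locus that holds its identical copy), cox1 and ccmB by group, with points for libraries (filled when waterlogged) and bars for mean ± SD (n = 3). For atp1 and AT2G07698 the 3 waterlogged rbohD libraries lie above the 3 control rbohD libraries at 60 min, while for cox1 and ccmB these groups overlap.

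Both rrn18 and ATMG00020 were called higher in waterlogged than in control rbohD leaves, and the nuclear 18S ribosomal RNA was not called. rrn18 was at 81.9, 80.2 and 71.3 FPKM in waterlogged rbohD and 58.6, 56.6 and 45.7 FPKM in control rbohD (0.53 ± 0.23 SE, limma adjusted p = 0.0495), and ATMG00020 was at 32.0, 31.4 and 29.6 FPKM against 20.3, 21.5 and 18.4 FPKM (0.61 ± 0.23 SE, limma adjusted p = 0.0277). Neither locus overlapped between the groups. The 18S locus stood at 5290, 5051 and 4639 FPKM in waterlogged rbohD and 5466, 5091 and 4050 FPKM in control rbohD (0.05 ± 0.26 SE, limma adjusted p = 0.895). Per 1000 FPKM of 18S, rrn18 came to 15.5, 15.9 and 15.4 FPKM in waterlogged rbohD, 10.7, 11.1 and 11.3 FPKM in control rbohD, and 13.3, 15.9 and 14.2 FPKM in rbohD at 0 min. Over all WT libraries it ran from 9.91 to 19.4 FPKM, so the waterlogged rbohD ratio lay within the WT range and the control one near its low end. Among WT libraries at 60 min alone it ran from 13.0 to 19.4 FPKM, above all control rbohD libraries of that time.

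The call of rrn18 depends on the setting. It was lost with no filter, with nuclear protein-coding genes at equal totals, with a pseudocount of 0.1 and with a block for replicate number (limma adjusted p up to 0.0725). The rrn18 call was also lost on leaving out any of the 6 libraries (adjusted p 0.0547 to 0.167), and that of ATMG00020 without control replicates 1 or 3 or waterlogged replicates 1 or 2 (adjusted p 0.0522 to 0.0813). The shared spread includes waterlogged WT at 60 min, where replicate 3 stands apart. With 18S ribosomal RNA as a covariate, the differences were 0.50 ± 0.10 (SE, limma adjusted p = 0.00016) for rrn18 and 0.57 ± 0.12 (SE, limma adjusted p = 0.000239) for ATMG00020.

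Whether the response to waterlogging at 60 min differed between genotypes was tested by the interaction. It was called for 3 of 33 loci, all higher in rbohD, or 9.09%, against 34.4% of all genes (15.1% higher), and for 1 without WT control replicate 3 or waterlogged rbohD replicate 3. atp1 differed by 0.42 ± 0.14 (SE, limma adjusted p = 0.0246): in WT it was at 2.69, 2.05 and 3.09 FPKM in waterlogged leaves and 2.78, 1.97 and 2.66 FPKM in controls. The other calls were atp6-2 (0.69, limma adjusted p = 0.0286) and ATMG01090 (0.73, limma adjusted p = 0.0282), a locus whose RefSeq note names ATP synthase 9 and which was named after its values were seen. All 3 were lost on leaving out some libraries. For atp1 these were WT control replicates 1 or 3, waterlogged WT replicate 2, control rbohD replicate 1 or waterlogged rbohD replicate 3 (adjusted p 0.0629 to 0.0915). For atp6-2 they were WT control replicate 3, waterlogged WT replicate 3, control rbohD replicate 2 and waterlogged rbohD replicates 2 and 3 (adjusted p 0.0644 to 0.101). For ATMG01090 they were WT control replicate 2, waterlogged WT replicate 3, control rbohD replicate 1 and waterlogged rbohD replicate 2 (adjusted p 0.0633 to 0.0861).

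For rrn18 and ATMG00020 the interaction did not pass in the main fit, and it passed without the 1 WT library with high 18S. With all libraries it was 0.06 ± 0.32 (SE, limma adjusted p = 0.911) for rrn18 and 0.28 ± 0.33 (SE, limma adjusted p = 0.544) for ATMG00020. Without replicate 3 of waterlogged WT it was 0.55 ± 0.15 (SE, limma adjusted p = 0.00596) for rrn18 and 0.74 ± 0.18 (SE, limma adjusted p = 0.00332) for ATMG00020, and for atp1 0.51 ± 0.14 (SE, limma adjusted p = 0.00709). In that fit the 18S interaction was 0.04 ± 0.22 (SE, limma adjusted p = 0.910). With all libraries and 18S as a covariate, the interaction was 0.44 ± 0.14 (SE, limma adjusted p = 0.0238) for rrn18.

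Between genotypes, some mitochondrial loci were called higher in rbohD at each shared condition, where 18S ribosomal RNA was also called higher. At 0 min 8 of 33 passed, all higher in rbohD, against 32.4% of all genes (16.4% higher). These 8 include rrn5, which met the limit of 1 FPKM only through a few libraries of rbohD at 0 min and WT controls at 60 min. The rrn5 call therefore cannot count as support. Among controls at 60 min 4 of 33 passed, all higher, against 38.6% of all genes (19.0% higher). Among waterlogged leaves at 60 min 6 of 33 passed, all higher, against 34.6% of all genes (14.6% higher). The share of mitochondrial loci called higher was 24.2% (rrn5 included), 12.1% and 18.2%, which lay above, below and above that of all genes. These shares rest on few loci, and the counts ran from 4 to 9, 2 to 7 and 4 to 8 when 1 library was left out. In either direction the shares were the same and lay below the 32.4%, 38.6% and 34.6% of all genes. The count at 0 min was 4 without rbohD replicate 3, and that among controls 2 without WT replicate 1 and 7 without rbohD replicate 3. The median difference of the 33 loci was 0.25, 0.06 and 0.26 in these comparisons, and of all genes -0.01, -0.00 and -0.04.

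At 0 min rrn18 was at 60.1, 71.5 and 72.1 FPKM in rbohD and 27.7, 25.0 and 26.4 FPKM in WT, with no overlap (1.33 ± 0.23 SE, limma adjusted p = 7.24e-05). ATMG00020 was at 18.9, 24.7 and 26.3 FPKM in rbohD and 11.5, 9.06 and 9.67 FPKM in WT (1.13 ± 0.23 SE, limma adjusted p = 0.000482). The nuclear 18S locus was at 4508, 4492 and 5082 FPKM in rbohD and 1666, 1473 and 2061 FPKM in WT (1.45 ± 0.26 SE, limma adjusted p = 0.000108). With 18S as a covariate the differences were 0.16 for rrn18 and 0.00 for ATMG00020, and neither passed (limma adjusted p = 0.565 and 0.995). The slope of that covariate comes from 18S differences within groups, which were largest in waterlogged WT at 60 min (SD 2163 FPKM). It is carried across the 18S gap, so the fit cannot separate genotype from 18S at 0 min or among controls. Among controls at 60 min the difference of rrn18 was 0.79 (limma adjusted p = 0.00864) and of ATMG00020 0.66 (limma adjusted p = 0.027), and with the covariate both turned round, to -0.24 and -0.33. Without WT control replicates 1 or 2 or rbohD control replicates 1 or 2 the call of ATMG00020 was lost (adjusted p 0.0556 to 0.0919).

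In waterlogged leaves at 60 min, where 1 WT library shared the high 18S level, rrn18 differed by 0.85 (limma adjusted p = 0.00587) and ATMG00020 by 0.94 (limma adjusted p = 0.00275). Replicate 3 of waterlogged WT, at 85.6 FPKM of rrn18, lay above all 3 waterlogged rbohD libraries. Without it, the differences were 1.34 for rrn18 (limma adjusted p = 3.91e-09) and 1.40 for ATMG00020 (limma adjusted p = 6.14e-08), beside 1.31 for the 18S locus (limma adjusted p = 2.41e-06). Without waterlogged WT replicate 1 or 2 the rrn18 call was lost (adjusted p 0.0565 to 0.0581), and with 18S as a covariate neither locus passed (0.19 and 0.31, limma adjusted p = 0.24 and 0.108).

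**Figure D4:**
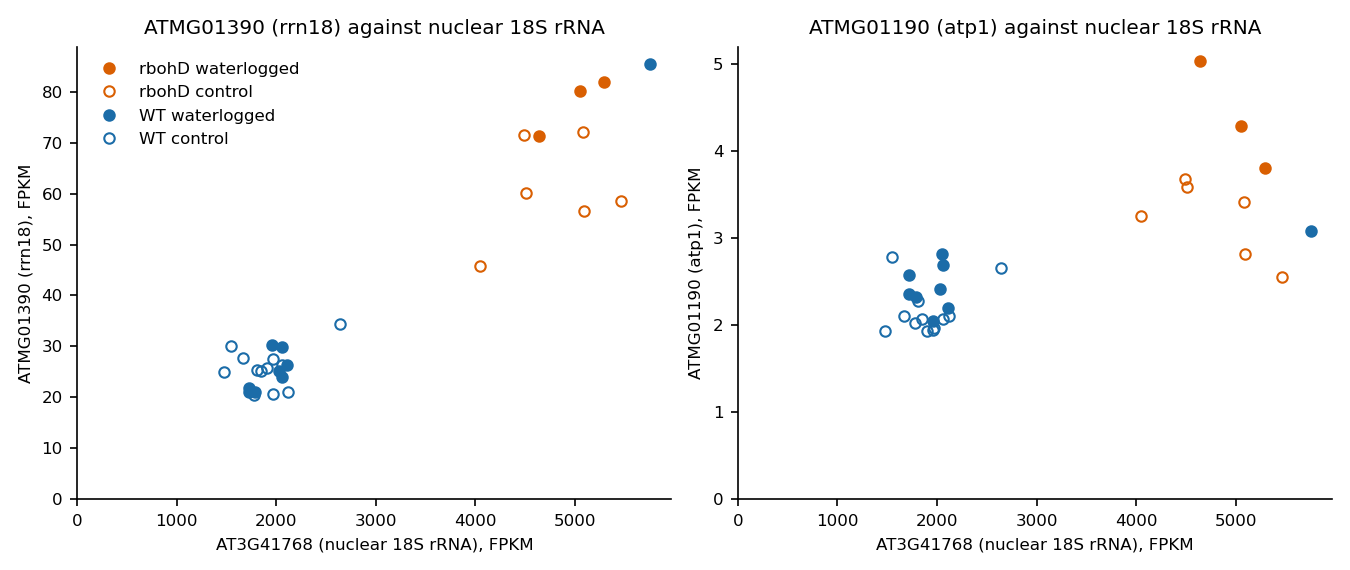
FPKM of rrn18 (left panel) and atp1 (right panel) against FPKM of nuclear 18S ribosomal RNA, 1 point per library, orange for rbohD and blue for WT, filled when waterlogged. The 10 libraries at 4050 FPKM of 18S or more hold 45.7 FPKM of rrn18 or more, and the 1 WT library among them has 3.09 FPKM of atp1, below the 3.81 to 5.04 FPKM of waterlogged rbohD.

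Within each side of the 18S split no relation to 18S passed 0.05 after adjustment. The permutations shuffled libraries across groups within a side, so their p-values do not account for the groups. Because the libraries formed 2 clusters no pooled correlation was computed. Among the 20 libraries below the gap, rrn18 against 18S gave Pearson r = 0.39 (permutation p = 0.0992) and Spearman rho = 0.20 (permutation p = 0.398). Among the 10 above it, r was 0.59 (permutation p = 0.0725) and rho 0.45 (permutation p = 0.191). Without the 2 libraries farthest from the median 18S level, r was 0.03 on either side. Leaving them out also narrows the range of 18S, which by itself lowers r, so whether the relation rested on those libraries cannot be told. ATMG00020 gave r = 0.47 and rho = 0.32 (permutation p = 0.0469 and 0.17) below the gap and r = 0.49 and rho = 0.47 (permutation p = 0.148 and 0.182) above it, which became r = 0.14 and 0.13 without the 2 farthest. For atp1 r was 0.20 and rho 0.12 below (permutation p = 0.411 and 0.62), and r -0.33 and rho -0.42 above (permutation p = 0.352 and 0.232), or r = -0.19 and -0.50 without the 2 farthest. After Benjamini-Hochberg adjustment over these 6 relations, no p was under 0.198.

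The gene atp1 was called at 0 min and among waterlogged leaves. At 0 min it was at 3.58, 3.68 and 3.41 FPKM in rbohD and 2.104, 1.93 and 2.07 FPKM in WT (0.59 ± 0.10 SE, limma adjusted p = 5.8e-05). In waterlogged leaves at 60 min it was at 3.81, 4.29 and 5.04 FPKM in rbohD and 2.69, 2.05 and 3.09 FPKM in WT (0.58 ± 0.10 SE, limma adjusted p = 7.69e-05). Neither pair of groups overlapped. Both calls held with 18S as a covariate (0.46 and 0.51, limma adjusted p = 0.043 and 0.00268) and without each library in turn (0.56 to 0.61 and 0.46 to 0.68). The covariate fit cannot separate genotype from 18S at 0 min, where each group lay on its own side of the gap. Among controls at 60 min atp1 was at 2.56, 2.82 and 3.25 FPKM in rbohD and 2.78, 1.97 and 2.66 FPKM in WT and did not pass (0.16, limma adjusted p = 0.211). AT2G07698 differed by 0.61, 0.27 and 0.65 at 0 min, among controls and among waterlogged leaves (limma adjusted p = 0.000223, 0.0746 and 0.000109). Its 0 min call was lost with the covariate (0.39, limma adjusted p = 0.143), and its call among waterlogged leaves with only the groups compared.

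Other loci were called in 1 or 2 genotype comparisons, from few fragments. At 0 min these were nad9, a complex I subunit gene (2.86, 2.07 and 2.96 FPKM in rbohD against 1.34, 1.43 and 0.701 FPKM in WT), atp4, a stalk subunit gene of ATP synthase (2.49, 1.74 and 2.29 FPKM in rbohD against 1.45, 0.624 and 0.687 FPKM in WT), rpl2 and atp9. The nad9 difference was 0.76 (limma adjusted p = 0.0194), lost without WT replicate 3 or rbohD replicates 1 or 3 (adjusted p 0.0618 to 0.106). That of atp4 was 0.74 (limma adjusted p = 0.0285), lost without WT replicates 2 or 3 or rbohD replicates 1 or 3 (adjusted p 0.0746 to 0.108). The difference of rpl2 was 0.45 (limma adjusted p = 0.0141) and held without each library, though not with the covariate (0.16). Its nuclear partner AT2G07715 was not called at 0 min (0.10, limma adjusted p = 0.553). That of atp9 was 0.54 (limma adjusted p = 0.0293), lost without WT replicate 3 or rbohD replicates 2 or 3 (adjusted p 0.127 to 0.208). The eighth call, rrn5, was 0 in WT and 0, 906 and 292 FPKM in rbohD, at most 3 fragments, and was lost without either nonzero library (adjusted p 0.0890 to 0.130).

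Among controls at 60 min atp4 was again called (3.13, 2.83 and 2.15 FPKM in rbohD against 1.84, 1.17 and 0.775 FPKM in WT, 0.73, limma adjusted p = 0.0269), and so was ATMG00690 (0.47, limma adjusted p = 0.0289). The atp4 call was lost without WT replicates 2 or 3 or rbohD replicates 1 or 2 (adjusted p 0.0640 to 0.130), and that of ATMG00690 without WT replicate 1 or rbohD replicate 2 (adjusted p 0.148 to 0.276). In waterlogged leaves cox1 (0.55, limma adjusted p = 0.00921), ATMG00370 (0.52, limma adjusted p = 0.0374) and ATMG01090 (0.55, limma adjusted p = 0.0184) were higher in rbohD. cox1 was at 1.81, 3.26 and 2.74 FPKM in waterlogged rbohD and 1.51, 1.83 and 1.0003 FPKM in waterlogged WT. cox1 and ATMG01090 were lost without waterlogged WT replicate 3 (adjusted p 0.0712 and 0.0700) or waterlogged rbohD replicate 2 (adjusted p 0.0657 and 0.0826), and ATMG00370 without any WT library or rbohD replicates 2 or 3 (adjusted p 0.0535 to 0.154). ATMG00690, ATMG00370 and ATMG01090 were named after their values were seen. With 18S as a covariate, 6 of 8, 4 of 4 and 3 of 6 calls were lost at 0 min, among controls and among waterlogged leaves. Those that held were atp1 and nad9 at 0 min and atp1, cox1 and ATMG01090 among waterlogged leaves. Held or lost calls at 0 min and among controls do not separate genotype from 18S. With the covariate the difference was 1.61 for nad9, 0.84 for cox1 and 0.66 for ATMG01090 (limma adjusted p = 0.000523, 0.00043 and 0.0248).

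**Figure D5:**
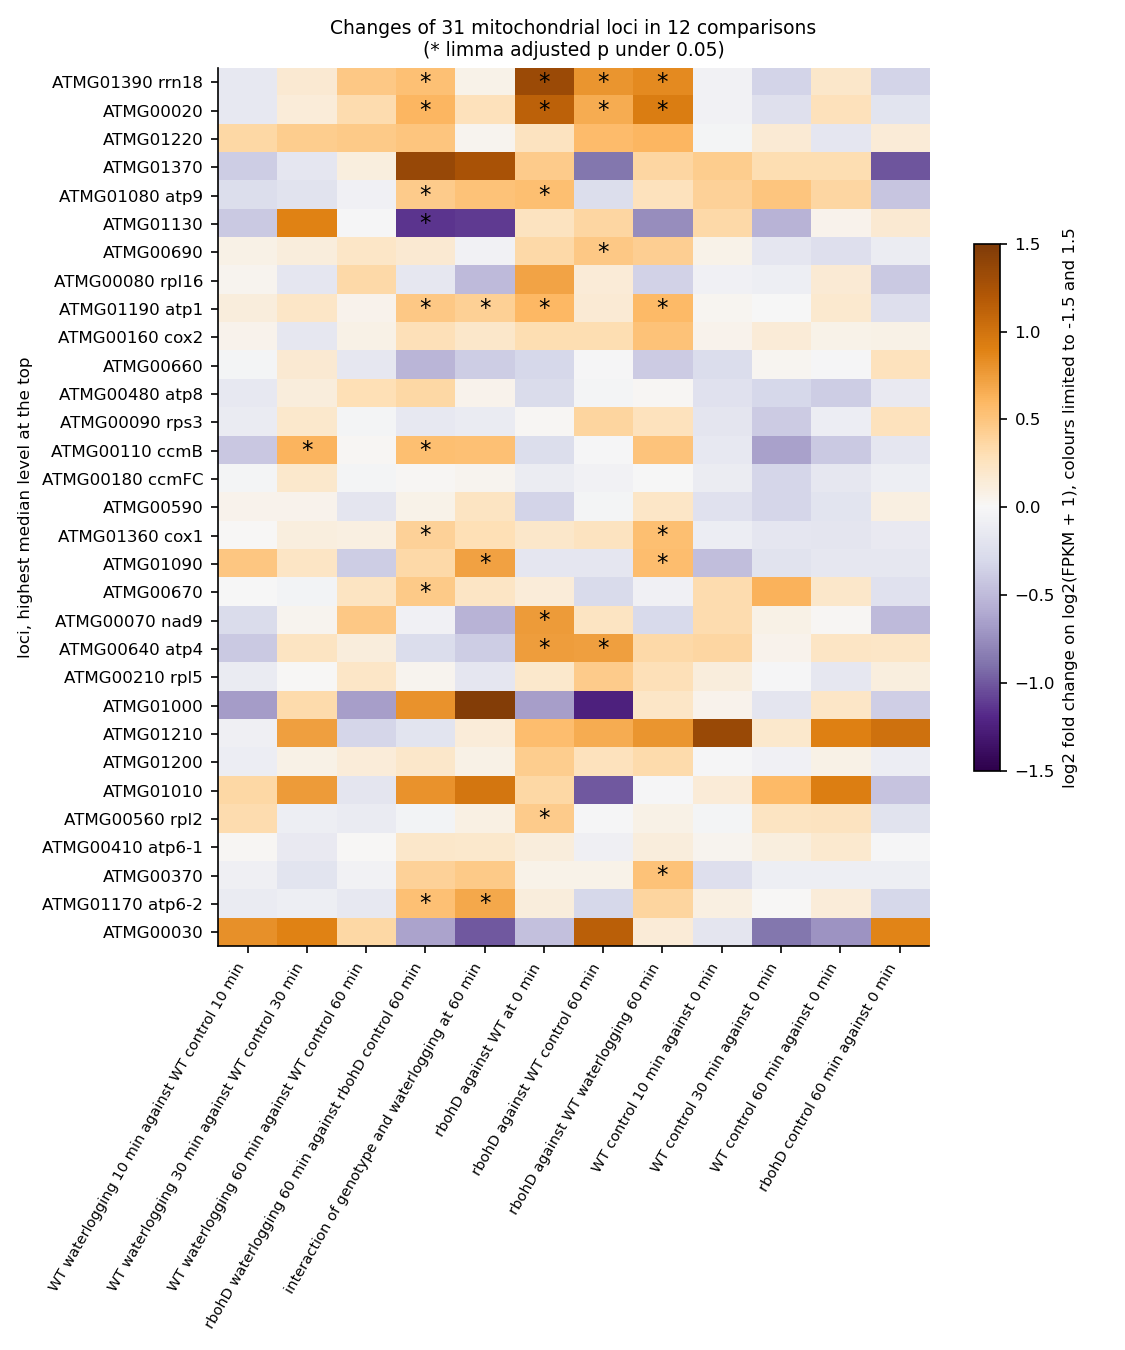
Log2 difference on the log2(FPKM + 1) scale (colour) for the 31 tested loci of at least 150 bases in 12 comparisons, with an asterisk where limma's adjusted p was under 0.05. Asterisks stand under waterlogged against control rbohD, the interaction and the 3 genotype comparisons, with 1 other, ccmB in waterlogged WT at 30 min.

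Over time in control leaves, few mitochondrial loci were called. In WT controls 0 of 33 passed against 0 min at 10, 30 and 60 min, beside 7.94%, 3.92% and 12.5% of all genes (2.61%, 1.93% and 6.22% higher), while 4, 5 and 2 had an unadjusted p under 0.05 in limma. Other settings called 0 to 1, 0 to 3 and 0 to 1 locus. In rbohD controls at 60 min against 0 min 1 of 33 passed, against 23.2% of all genes (10.2% higher). The 1 locus was rrn5, listed at 0 in all 3 later libraries, and the call was lost without any 60 min library or without rbohD 0 min replicate 2 or 3 (adjusted p 0.0537 to 0.160). Because rrn5 met the limit of 1 FPKM partly through rbohD at 0 min, this call cannot count as support. The count was 2 without rbohD 0 min replicate 1 or 60 min control replicates 1 or 3, and 0 without 0 min replicates 2 or 3. rrn18 was at 20.5, 20.6 and 21.0 FPKM in WT controls at 30 min against 27.7, 25.0 and 26.4 FPKM at 0 min, groups that did not overlap, yet the shared spread gave -0.34 ± 0.23 (SE, limma adjusted p = 0.519). With 18S as a covariate the difference was -0.48 (limma adjusted p = 0.00458), and that of rrn18 in rbohD controls at 60 min against 0 min was -0.37 (limma adjusted p = 0.00735).

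Nuclear genes for the same complexes were followed as a list of 33, most of which were called lower in waterlogged than in control rbohD leaves in the fit of all groups. Of 33 nuclear genes for respiratory chain and ATP synthase subunits, all of them tested, 26 were lower and 1 higher in waterlogged than in control rbohD leaves, or 78.8% lower, beside 32.7% of all genes called lower, and their median difference was -0.23 against -0.05 for all genes. With only the groups compared 15 of 33 were called, beside 7696 of all 17491 genes. CYTC-2, a cytochrome c that carries electrons between complexes III and IV, averaged 22.5 FPKM in waterlogged and 52.6 FPKM in control rbohD (-1.18 ± 0.08 SE, limma adjusted p = 3.03e-12). AT5G08680, of the ATP synthase alpha/beta family per RefSeq, averaged 67.7 FPKM in waterlogged and 109 FPKM in control rbohD (-0.68 ± 0.05 SE, limma adjusted p = 7.91e-12). In waterlogged against control WT at 60 min 6 of the 33 (18.2%) were lower and 0 higher, near the 15.0% of all genes called lower. The interaction was called lower in rbohD for 14 of 33 (42.4%), beside 19.3% of all genes. In control leaves at 60 min 14 of 33 (42.4%) were higher in rbohD than in WT, beside 19.0% of all genes. Just 7 of these 33 were called there with 18S as a covariate, beside 4225 of all 17491 genes, so that excess was not seen in that fit. Against 0 min, 10 of 33 (30.3%) were higher and 0 lower in rbohD controls at 60 min, beside 10.2% of all genes higher. Among waterlogged leaves 5 (15.2%) were lower and 3 (9.09%) higher in rbohD than in WT, beside 34.6% of all genes called either way.

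Nuclear genes for factors that transcribe, splice and edit mitochondrial RNA were less uniform. Of 17, all tested, 4 were lower and 1 higher in waterlogged than in control rbohD leaves, or 23.5% and 5.88%, below the 32.7% and 26.3% of all genes (with only libraries on 1 side of the 18S gap, 3 called in all, beside 8605 of 17491 genes). In waterlogged against control WT at 60 min 4 (23.5%) were lower and 0 higher, beside 15.0% and 14.7% of all genes. The mitochondrial RNA polymerase gene MGP3 (AT1G68990) averaged 11.4 FPKM in waterlogged and 17.2 FPKM in control rbohD (-0.55 ± 0.05 SE, limma adjusted p = 6.16e-10). AT5G46920 (nMAT2), a nuclear maturase for mitochondrial introns, was the 1 gene called higher (0.35 ± 0.07 SE, limma adjusted p = 0.000317), at 8.20 FPKM in waterlogged and 6.21 FPKM in control rbohD.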

How the data were processed

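RNA from systemic leaves was sequenced in 30 libraries, grouped by their titles. Reads were processed with Trim Galore 0.6.7, HISAT2 2.2.1, Cufflinks 2.2.1 and Cuffdiff on TAIR10, per the submitters' processing notes. Whether RNA was selected by poly(A) tail, strand use and the treatment of multiply mapped reads are not given in the sources used here. Per the file headers, the deposited files give FPKM, its confidence limits and a quantification status for each gene, and no counts. Fragments behind a value were inferred from its bounds. Of 32826 identifiers per file, 2 listed more than once and 2 without a valid status in some library were left out.

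Values were fitted as log2(FPKM + 1) for the 17491 genes averaging 1 FPKM or more, all 10 groups together, in limma 3.58.1 (R 4.3.3; 20 residual degrees of freedom; two-sided). Benjamini-Hochberg adjustment ran over all tested genes within each of 12 comparisons, with a threshold of 0.05. The fit was tested on simulated data. Symbols came from the files, RefSeq notes (10 loci), or equal length (within 1 base) and spacing (within 5 bases) to a RefSeq gene (8 loci, 4 with no other source); 33 loci were named, 17 of them tested. Sequences were matched with BLAST+ 2.17.0 at 95% identity or more. Relations used 100000 permutations, two-sided. Loci named are role-list members, the 3 others of highest mean, and called loci with a mean of at least 5 FPKM; loci next to the 1 FPKM limit and ATMG00370, ATMG00670, ATMG00690, ATMG01090 and ATMG01130 were named outside this rule, after their values were seen. Loci and lists were chosen with earlier results of these data known. Alternatives were a fit of just the groups under comparison, a block for replicate number, each library left out in turn, a pseudocount of 0.1, no filter, AT3G41768 as a covariate, nuclear protein-coding genes at equal totals and, chosen after seeing the data, only libraries on 1 side of the AT3G41768 gap.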

Additional observations from a re-analysis of the deposited data

Results flagged for a closer look

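The response to 60 min of waterlogging differed between rbohD and WT, by the interaction term, at 3 mitochondrial loci: ATMG01090 (0.73 on the log2 scale), atp6-2 (ATMG01170, 0.69) and atp1 (ATMG01190, 0.42), each with a larger difference of waterlogged over control leaves in rbohD. Limma's adjusted p was 0.0282, 0.0286 and 0.0246, and each was lost without some libraries, as given with the comparison. ATMG01090 was also lost with AT3G41768 as a covariate (limma adjusted p = 0.0567). The calls of atp6-2 and atp1 were lost with only the groups compared (limma adjusted p = 0.0960 and 0.137). ATMG01090 was at 1.78, 2.29 and 1.65 FPKM in waterlogged rbohD against 1.09, 1.26 and 1.48 FPKM in control rbohD, and at 1.10, 1.01 and 0.816 FPKM in waterlogged WT against 1.32, 2.099 and 1.34 FPKM in control WT, so the groups did not overlap within either genotype.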

How the results depend on the processing

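Of 32 calls at mitochondrial loci, those of rrn5 included, 8 held without each library left out in turn, and 3, all of atp1, held under each of the alternatives run. Over the 413 alternatives run for these calls, 272 kept the call, 139 lost it and 2 turned the sign: rbohD against WT controls at 60 min for ATMG00020 (-0.33) and rrn18 (-0.24), with AT3G41768 as a covariate. The median log2 difference of all genes stayed between -0.07 and 0.02.

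With AT3G41768 as a covariate the number of loci called became 0 for waterlogged WT at 30 min, 1 at 60 min, 5 for the interaction, 3, 2 and 3 for rbohD against WT at 0 min, among controls and among waterlogged leaves, 1 for WT controls at 30 against 0 min and 2 for rbohD controls at 60 against 0 min. With only the groups compared it became 0 for waterlogged WT at 30 min, 4 for waterlogged rbohD, 1 for the interaction, 3 for rbohD against WT among waterlogged leaves and 2 for WT controls at 30 min. Without the filter it became 0 and 2 for waterlogged WT at 30 and 60 min and 2 for rbohD controls at 60 min, and with nuclear totals equal 0 for waterlogged WT at 30 min. With only libraries on 1 side of the AT3G41768 gap it became 1 for waterlogged WT at 60 min, 5 for waterlogged rbohD, 3 for WT controls at 30 min and 0 for rbohD controls. Counts over all 17491 genes moved too. With only the groups compared they went from 2078 to 1739 for waterlogged WT at 30 min and from 10328 to 7696 for waterlogged rbohD. For the interaction they went from 6017 to 4550, for rbohD against WT among waterlogged leaves from 6053 to 3266, and for WT controls at 30 min from 685 to 267. With the covariate, rbohD against WT went from 5668 to 3027 at 0 min and from 6747 to 4225 among controls. The cause was not tested.

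Leaving out 1 library gave 0 to 1, 0 to 1 and 0 to 2 calls for waterlogged WT at 10, 30 and 60 min, 3 to 6 for waterlogged rbohD, 1 to 4 for the interaction, 4 to 9, 2 to 7 and 4 to 8 for the genotype comparisons in the order above, 0 to 1, 0 to 0 and 0 to 1 for WT controls at 10, 30 and 60 min and 0 to 2 for rbohD controls. The lowest count for waterlogged rbohD, 3, came without control replicate 2, where 9598 of all 17491 genes passed.

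Deviations of same-numbered libraries from their group means correlated at a median of 0.01 (-0.15 to 0.21), and those of differently numbered libraries at a median of -0.01. Whether some libraries of a number shared a batch was not tested. With the replicate block, waterlogged WT at 30 min had 0 loci called and waterlogged rbohD 7.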

Other observations

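The chromosome 2 insertion held 124 loci, of which 19 had a mean of at least 1 FPKM. In waterlogged against control rbohD leaves at 60 min 4 of these 19 (21.1%) were higher and 0 lower, beside 26.3% of all genes higher, and in rbohD against WT among waterlogged leaves 4 (21.1%) were higher and 0 lower, beside 14.6% of all genes higher. Partners differed in level: AT2G07671, the partner of atp9, averaged 8.97 FPKM against 3.81 FPKM for atp9, whereas AT2G07798, the partner of ATMG01220, averaged 0.150 FPKM against 8.89 FPKM.

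Summed over mitochondrial loci of at least 150 bases and without rrn18 and ATMG00020, levels were 116 ± 13.6 FPKM in waterlogged rbohD, 100.8 ± 13.1 FPKM in control rbohD, 92.4 ± 4.74 FPKM in waterlogged WT and 84.6 ± 3.48 FPKM in control WT at 60 min (SD, n = 3), and 100.5 ± 13.0 FPKM in rbohD against 79.6 ± 2.53 FPKM in WT at 0 min (SD, n = 3). The share of rrn18 in the sum with those loci was 27.8% to 40.3% in the 10 libraries with high 18S and 16.8% to 25.4% in the other 20. A sum over all 152 loci is not usable: the 1 fragment on ATMG09450 gave WT at 0 min replicate 2 a sum of 11214 FPKM.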
